A study of Mus musculus with 24 samples.

Results

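Transcripts that stood higher or lower in mouse 1-cell embryos 8 h after sperm injection than in embryos of the times on either side were sought by comparing 3 embryos of 8 h with 7 embryos of 6 h and 10 h pooled. These 10 cells belong to a series of 24, and every one of the 19532 genes with a measured probe was tested. The 8 h group held 3 embryos, and the flanking groups held 3 embryos of 6 h and 4 of 10 h. All were single embryos listed under B6D2F1, a hybrid mouse strain. They were made by intracytoplasmic sperm injection (ICSI) with sperm of B6D2F1 males 8 to 12 weeks old and kept in culture until collection. Injection, culture and whole-transcriptome amplification of 1 cell were shared by the 8 h embryos and their controls, so the comparison holds time after injection as its only labelled difference. The other 14 cells were metaphase II oocytes (0 h, 3 cells) and embryos of 2 h (3), 4 h (4) and 12 h (4).

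After a sperm enters the oocyte, meiosis is completed, the maternal and paternal genomes decondense into separate pronuclei, and DNA replication begins in them. The oocyte arrives with a large store of maternal mRNA, part of which is degraded while another part is recruited for translation. Transcription of the embryo's own genome starts at a low level within the 1-cell stage, before the main wave of genome activation at the 2-cell stage. Capture on oligo-dT reads the poly(A) RNA of a cell, so new RNA and a lengthened tail on stored RNA cannot be told apart here.

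Levels are given as log2 intensity, a scale read back from the deposited scores as the processing describes, and the most common level, 6.81, is called the background. A change is the mean log2 intensity at 8 h minus that of the 7 flanking embryos, and a gene is called where its limma adjusted p is under 0.05 over all genes. Per-array medians over all genes lay between 7.85 and 8.01. Pairs of 8 h embryos correlated across genes at 0.82 to 0.85, pairs of 6 h embryos at 0.85 to 0.92 and pairs of 10 h embryos at 0.85 to 0.89. The cells read as oocyte-derived: the 34 oocyte markers measured averaged 12.82 to 13.13 on the 8 h arrays, against 12.94 to 13.12 on the flanking arrays. The 19 cumulus cell markers averaged 7.75 to 7.85 on the 8 h arrays and 7.55 to 7.81 on the flanking ones. Of the defining cumulus genes, Amh stood at 13.21 ± 0.21 at 8 h (SD, n = 3) and 13.27 ± 0.32 in the flanking embryos (n = 7), while Inha, Fshr, Foxl2 and Star lay within 1 log2 unit of the background in both. The 11 blood cell markers averaged 7.92 to 8.03 at 8 h and 7.57 to 8.48 in the flanking embryos.

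At 8 h, 64 genes were called, 0.328% of those tested. Of these, 61 were higher than in the flanking embryos (0.312%) and 3 were lower (0.0154%). The changes upward were mostly of faint transcripts: the median of the 61 was 8.17 at 8 h, against 6.97 in the 6 h and 10 h embryos, at a median change of 1.19 (range 0.80 to 3.78). Of the 61, 10 changed by over 2 log2 units, 37 by 1 to 2 and 14 by up to 1. The median change of all genes was -0.03. In 56 of the 61 genes the 3 embryos of 8 h all stood above the 7 flanking embryos, a pattern seen in 1.67% of all genes. In 2 of the 3 lower genes all stood below, against 0.896% of all genes. The genes were called on this same difference, so their separation is a description and no further support. The peaks that were both called and separated made up 0.287% of all genes, and such dips 0.0102%. Before adjustment, 1485 genes (7.6%) had a limma p under 0.05, of which 1065 (5.45%) were higher and 420 (2.15%) lower.

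These calls rest on the spread of all 24 arrays. With the 6 h, 8 h and 10 h arrays alone in the limma fit, 0 genes passed (smallest adjusted p 0.24), with 1342 genes at an unadjusted p under 0.05, and a limma fit of 8 h against the 7 others as 1 group also called 0. Leaving out 1 array at a time gave between 25 genes (without replicate b of 10 h) and 110 (without replicate c of 8 h), and only 4 genes were called among the brighter 60%.

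The gene with the largest rise was Oaz3, which encodes antizyme 3, an inhibitor of ornithine decarboxylase that is made in spermatids. Its levels were 10.96, 9.44 and 12.66 in 8 h embryos a, c and d, against 6.87 at lowest, 7.25 at the median and 7.64 at highest in the 7 flanking embryos. Values of the 8 h embryos are given in this order throughout. All 3 thus lay well above every flanking one, although they differed among themselves by more than the flanking embryos did. The change was 3.78 (SE 0.62, limma adjusted p = 0.00966). In the 14 cells of the other times Oaz3 ran from 6.92 to 10.02 with a median of 7.28, and 1 embryo of 12 h, at 10.02, stood above the lowest embryo of 8 h. Without the least correlated array of each of 6 h, 8 h and 10 h, a setting chosen after seeing the data, the change was 2.92 with a limma adjusted p of 0.10.

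Ebf1, a transcription factor known for early B cell development, had the next largest rise. It read 10.18, 8.71 and 12.90 in the 8 h embryos, against a lowest value of 6.49, a median of 6.89 and a highest of 7.29 in the flanking embryos. The flanking embryos were all within 1 log2 unit of the background, and none of the 8 h embryos was. The change was 3.70 (SE 0.52, limma adjusted p = 0.00251), and a limma comparison of 8 h with the 14 cells of the other times gave 3.51 (SE 0.48, adjusted p = 0.00164). One embryo of 4 h, at 8.75, stood above the lowest of 8 h. Both other Ebf1 probes on the array lay near the background, with changes of -0.11 and 0.03.

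Atp9b encodes a membrane protein of the P4-ATPase family at the trans-Golgi. It was over 1 log2 unit above the background in most flanking embryos too: the embryos of 8 h read 12.99, 10.57 and 11.39, against 7.27, 8.16 and 9.29 as the lowest, median and highest of the flanking embryos. No flanking embryo came near the lowest embryo of 8 h. One embryo of 2 h, at 10.85, stood above it, and another, at 10.25, lay just below. Its change was 3.43 (SE 0.61, limma adjusted p = 0.0139). Without 8 h replicate a it was 2.76 with an adjusted p of 0.0684, past the threshold no longer.

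**Figure D1:**
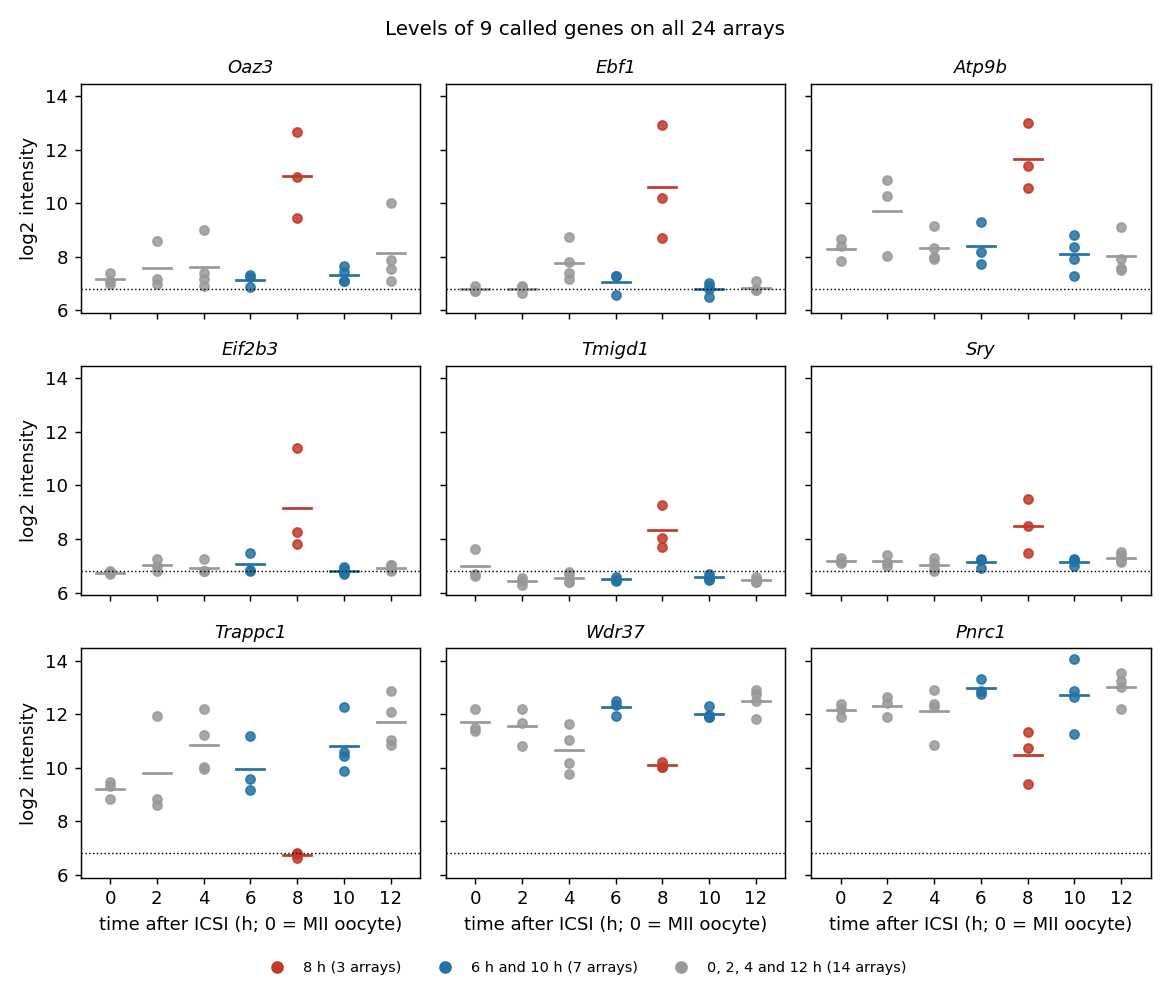
Log2 intensity (vertical axis) of 9 called genes in every cell against time after ICSI (horizontal axis, hours, 0 being the oocyte). Points are single cells, short bars are group means and the dotted line is the background of 6.81. In the upper 6 panels the 8 h embryos are the high points, at up to 12.99 in Atp9b, and in the lower 3 panels they are the low points, with Trappc1 at the background.

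Klhl11, a BTB and kelch-repeat protein of the cullin 3 ubiquitin ligase family, fell outside the rule for named genes because its groups overlapped, and it is given here after its values were seen. It averaged 11.74 ± 1.3 at 8 h (SD, n = 3) and 8.43 ± 1.3 in the flanking embryos (n = 7), the brightest mean of the 61 genes at 8 h. The change was 3.31 (SE 0.73, limma adjusted p = 0.049), and leaving out 1 array at a time put the adjusted p of Klhl11 between 0.019 and 0.243. One 10 h embryo, at 10.97, lay above the lowest embryo of 8 h, at 10.35. Acbd4, an acyl-CoA-binding protein, read 7.31, 10.93 and 11.53 in the 8 h embryos, against 6.54, 6.87 and 8.62 as the lowest, median and highest flanking values. Embryo a of 8 h lay within the flanking range, and the change of 2.80 (SE 0.57, limma adjusted p = 0.0353) came mostly from the other pair.

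Translation gave a single called gene, Eif2b3, the gamma subunit of eIF2B, the exchange factor that recharges the initiator of translation eIF2. Its 8 h embryos read 11.40, 7.80 and 8.26, against 6.70, 6.86 and 7.49 as the lowest, median and highest flanking values. Embryo a was much the highest, and the other embryos of 8 h lay just above the flanking range. The change was 2.23 (SE 0.45, limma adjusted p = 0.0341), and without embryo a it was 1.11 (adjusted p = 0.0137). The other 52 measured translation factors were not called, against 0.328% of all genes called, and the list's median change was -0.05.

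Olfr1104, an olfactory receptor, read 8.76, 10.00 and 7.83 at 8 h, against 6.33, 6.66 and 7.30 as the lowest, median and highest flanking values, a change of 2.18 (SE 0.30, limma adjusted p = 0.00251). Olfr537-ps1, an olfactory receptor pseudogene, changed by 2.51 (SE 0.51, limma adjusted p = 0.0346), and embryos of 4 h and 12 h reached 9.07 and 9.87, above the lowest embryo of 8 h at 8.31. Tmigd1, an adhesion protein of kidney and gut epithelium, read 8.04, 9.26 and 7.69 at 8 h and between 6.45 and 6.69 in the flanking embryos. Its change, 1.79 (SE 0.24, limma adjusted p = 0.00251), was also the only one called against 6 h alone, at an adjusted p of 0.0312. In all, 5 of the 61 genes (8.2%) were olfactory or vomeronasal receptor genes or pseudogenes, against 5.36% of all genes tested.

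Cd8b1, the beta chain of the T cell co-receptor CD8, read 9.91, 8.20 and 9.40 at 8 h and 6.94 to 7.79 in the flanking embryos, with a change of 1.76. Slc7a13, an amino acid transporter, reached 10.22 in 8 h embryo c but 7.40 and 7.65 in the other two, against 6.00 to 7.09 in the flanking embryos, a change of 2.06. Without embryo c the change of Slc7a13 was 1.16 (limma adjusted p = 0.0113). C1s2, a serine protease of the complement system, read 8.81, 8.41 and 10.36 at 8 h and 6.42 to 7.98 in the flanking embryos, a change of 2.08. The limma adjusted p was 0.0119 for Cd8b1, 0.0188 for Slc7a13 and 0.0337 for C1s2. All 3 genes had separated groups, but the size of the gap rested on different embryos of 8 h in each.

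The remaining genes among the 15 largest called changes with separated groups were As3mt, Aacs, Nudt17, Ldoc1 and Tex46. As3mt, which methylates arsenic, read 8.27, 10.52 and 7.68 at 8 h and 6.83 to 7.57 in the flanking embryos, with a change of 1.75. Without embryo c of 8 h the change of As3mt was 0.90 and its limma adjusted p 0.104. Aacs, which activates acetoacetate for lipid synthesis, read 7.79, 9.16 and 9.25 at 8 h and 6.56 to 7.54 in the flanking embryos. Nudt17, a Nudix hydrolase, read 8.52, 8.54 and 10.34 at 8 h and 7.24 to 8.05 in the flanking embryos. Its change was 1.66, and 1.06 without embryo d of 8 h at a limma adjusted p of 0.268. Ldoc1, a leucine zipper gene on the X chromosome, read 8.27, 9.92 and 8.23 at 8 h and 6.58 to 7.73 in the flanking embryos. Tex46, named for its expression in testis, read 7.77, 8.41 and 9.10 at 8 h and 6.42 to 7.09 in the flanking embryos. The limma adjusted p was 0.0444 for As3mt, 0.0346 for Aacs, 0.0454 for Nudt17, 0.0224 for Ldoc1 and 0.00374 for Tex46.

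Sry, the testis-determining gene of the Y chromosome, also stands outside the rule for named genes and is given after its values were seen. It read 9.49, 7.49 and 8.49 at 8 h, and averaged 7.14 ± 0.13 in the flanking embryos (SD, n = 7). All 3 embryos of 8 h lay above the flanking ones, with a change of 1.35 (SE 0.28, limma adjusted p = 0.0352). Without embryo a of 8 h the change was 0.85 at an adjusted p of 0.149. In the 14 cells of the other times, oocytes included, Sry averaged 7.17.

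The 61 genes were called for their high 8 h levels, so the values here follow from that choice and are a description. Within these genes, a high 8 h level was shared by the 3 embryos in rank more than in size. Their medians over the 61 genes were 8.40, 8.03 and 7.97 in embryos a, c and d, against 6.81 to 7.17 in the 6 h embryos and 6.89 to 6.95 in the 10 h embryos. Embryo a held the highest of the 3 values in 29 genes, embryo c in 14 and embryo d in 18. In 52, 40 and 38 of the 61 genes those embryos stood over 1 log2 unit above the background, against 1 to 4 genes in any flanking embryo. All 3 cleared that mark together in 20 genes, and the 3 values lay over 1 log2 unit apart in 33 and over 2 apart in 10. The median SD of the 61 genes was 0.56 at 8 h and 0.23 in the flanking embryos, whereas over all genes it was 0.47 at 8 h and 0.56 in the flanking embryos.

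**Figure D2:**
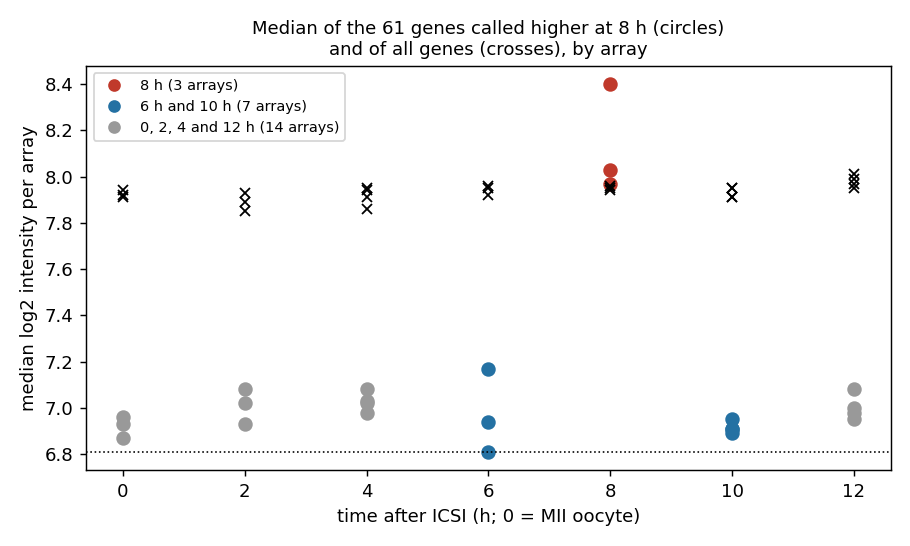
Median log2 intensity (vertical axis) of the 61 genes called higher at 8 h, 1 circle per cell, against time after ICSI (horizontal axis, hours), with the median of all genes of the same cell as a cross. The circles of 8 h lie between 7.97 and 8.40 and those of every other time between 6.81 and 7.17, while the crosses stay between 7.85 and 8.01 throughout. The genes were called from the change between the 8 h and the 6 h and 10 h cells with the spread of all cells, so the circles are a description.

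The cells of 0, 2, 4 and 12 h lent their spread to the limma fit that chose the 61 genes, so they are no independent check, but their levels did not enter the change that was tested. Their medians over these genes were 6.87 to 7.08, and they held 2 to 9 of the 61 genes over 1 log2 unit above the background. The median change of the 61 genes against these 14 cells was 1.2 and the lowest 0.67, with the same 8 h embryos on top of both comparisons. The 8 h mean was the highest of the 7 times in 60 of the 61 genes, Acsm5 being the exception, against 15.3% of all genes. In 30 genes all 3 embryos of 8 h stood above all 21 other cells, as 51 of all 19532 genes did. Of the 56 separated peaks, 55 also had their highest mean at 8 h.

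By overall level, the peaks lay mostly at the faint end of the array. Within 1 log2 unit of the background, by the mean over all cells, 57 of 8830 genes were called higher and 0 lower. Among the 3734 genes over 4 log2 units above it, 0 were called higher and 2 lower. The faint genes also had the smallest standard errors, a median of 0.29, against 0.62 at 1 to 2 units, 0.75 at 2 to 4 units and 0.47 above that. At an unadjusted p under 0.05, 7.77% of the faint genes were higher and 1.06% lower at 8 h, against 2.44% higher and 3.51% lower in the brightest class. Of the 61 genes, 59 (96.7%) were within 1 log2 unit of the background in the flanking embryos, against 46.1% of all genes. At 8 h, 54 stood over 1 unit above the background, 14 over 2 and 3 over 4. No background was subtracted, so near it a log2 change need not match the size of a change in RNA, which was not tested.

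**Figure D3:**
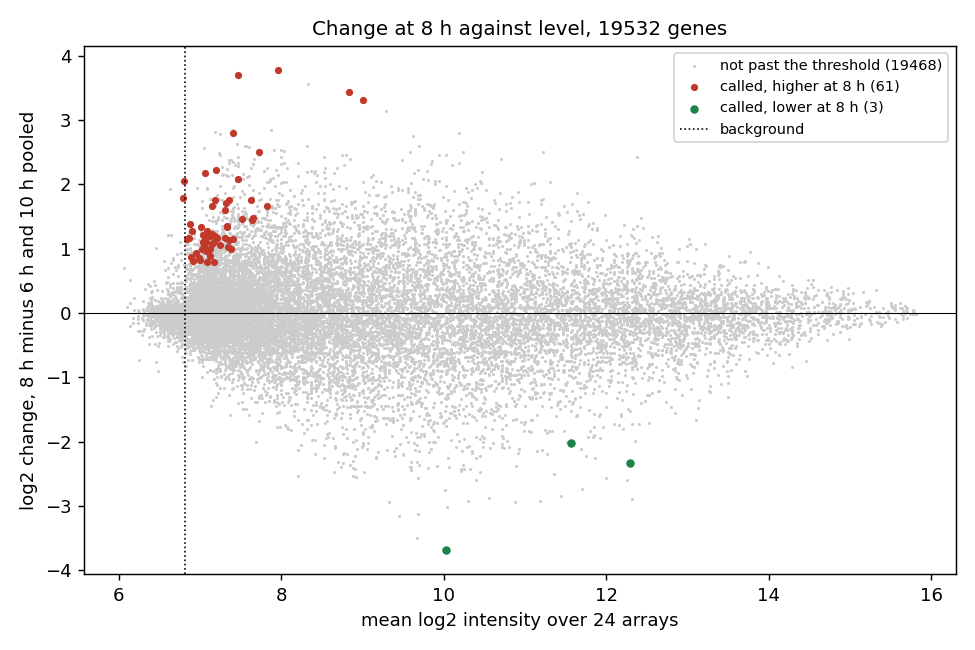
Log2 change at 8 h against 6 h and 10 h pooled (vertical axis) for 19532 genes by their mean log2 intensity over 24 cells (horizontal axis). Grey points are genes past no threshold, red points the 61 called higher and green points the 3 called lower, and the dotted line is the background of 6.81. The red points crowd beside the background at changes of 0.80 to 3.78, and the green points lie to the right at -2.02 to -3.69.

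A second probe was available for 22 of the 61 genes. Their 27 other probes were all within 1 log2 unit of the background. Of these, 13 were higher at 8 h, 2 of them at an unadjusted limma p under 0.05, and in 0 were the groups separated. Their median change was -0.03, against -0.04 for all 13132 other probes, of which 44% were higher. The remaining 39 genes had a single probe. The called rises are thus those of the brightest probe of each gene. That probe was chosen by its mean over all 24 arrays, 8 h included. Near the background a rise at 8 h can therefore itself decide the choice. For Ebf1 the chosen probe averaged 6.9 in the flanking embryos and the other probes 6.95 and 6.94. For Atp9b the chosen probe averaged 8.22 there and the other probe 6.85.

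The gene lists held few of the called genes. Of 36 sperm and spermatid genes, Oaz3 and Plcz1 were called higher, against 0.312% of all genes, and the list's median change was -0.02. This list was chosen with earlier results of these data known, so its count is no independent evidence. Plcz1, the sperm phospholipase that starts calcium oscillations in the egg, read 7.88, 8.43 and 7.63 at 8 h and averaged 6.99 in the flanking embryos, a change of 0.99 (SE 0.21, limma adjusted p = 0.0389). The list's mean level was 8.03 to 8.09 at 8 h, against 7.81 to 8.11 in the flanking embryos. Prm1, a protamine, stood at 12.53 at 8 h and in the flanking embryos alike, while Prm2, at 8.79 at 8 h and 10.53 in the flanking embryos, was not called.

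A list of 20 genes that had been picked earlier for 8 h embryos against oocytes held 6 of the called genes: Oaz3, Ebf1, Atp9b, Acbd4, Eif2b3 and Plcz1. It was chosen on these same embryos, so its count is no independent evidence. Its other 14 genes were not called, and its median change was -0.40. Taldo1, of the pentose phosphate pathway, had the lowest change among them, with means of 7.14 at 8 h and 10.07 in the flanking embryos, at a limma adjusted p of 0.20.

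Against 0.328% of all genes, no gene of the lists for DNA replication, nucleotide synthesis, DNA repair, histones, pronuclear chromatin, 2-cell-stage genes or immediate early genes was called, with 54, 29, 54, 30, 42, 26 and 43 measured. Their median changes ran from -0.08 to 0.21. Mcm4, a subunit of the replicative helicase, had separated groups, at a limma adjusted p of 0.481. It averaged 12.87 at 8 h and 11.50 in the flanking embryos, but 13.47 in the oocytes. Rfc1, the large subunit of the clamp loader, averaged 11.25 at 8 h and 8.79 in the flanking embryos, at an adjusted p of 0.342. Parp1, a sensor of DNA breaks, averaged 9.01 at 8 h and 11.14 in the flanking embryos, also separated, at an adjusted p of 0.423. A second Parp1 probe averaged 8.28 at 8 h and 10.99 in the flanking embryos.

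Likewise, beside the 0.328% called over all genes, at which lists of such sizes hold few calls or none, 0 genes were called among chaperones, mRNA decay, mitosis, nuclear pore, RNA polymerase II, splicing, ribosome biogenesis, proteasome, unfolded protein response, p53 target, glycolysis, oxidative phosphorylation, ribosomal protein and pluripotency lists. Their median changes ran from -0.24 for the proteasome to 0.21 for the ribosomal proteins. Atp5l, a subunit of the mitochondrial ATP synthase, came closest among the higher genes, at a limma adjusted p of 0.0818. It averaged 13.76 at 8 h and 11.33 in the flanking embryos, but 13.67 at 12 h. Nop56, a core protein of box C/D particles in ribosome biogenesis, averaged 7.81 at 8 h and 6.97 in the flanking embryos with separated groups, at an adjusted p of 0.187. Exosc8, of the RNA exosome, averaged 14.32 at 8 h and 13.37 in the flanking embryos at an adjusted p of 0.201, and its change of 0.95 was 0.50 without embryo c of 8 h.

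**Figure D4:**
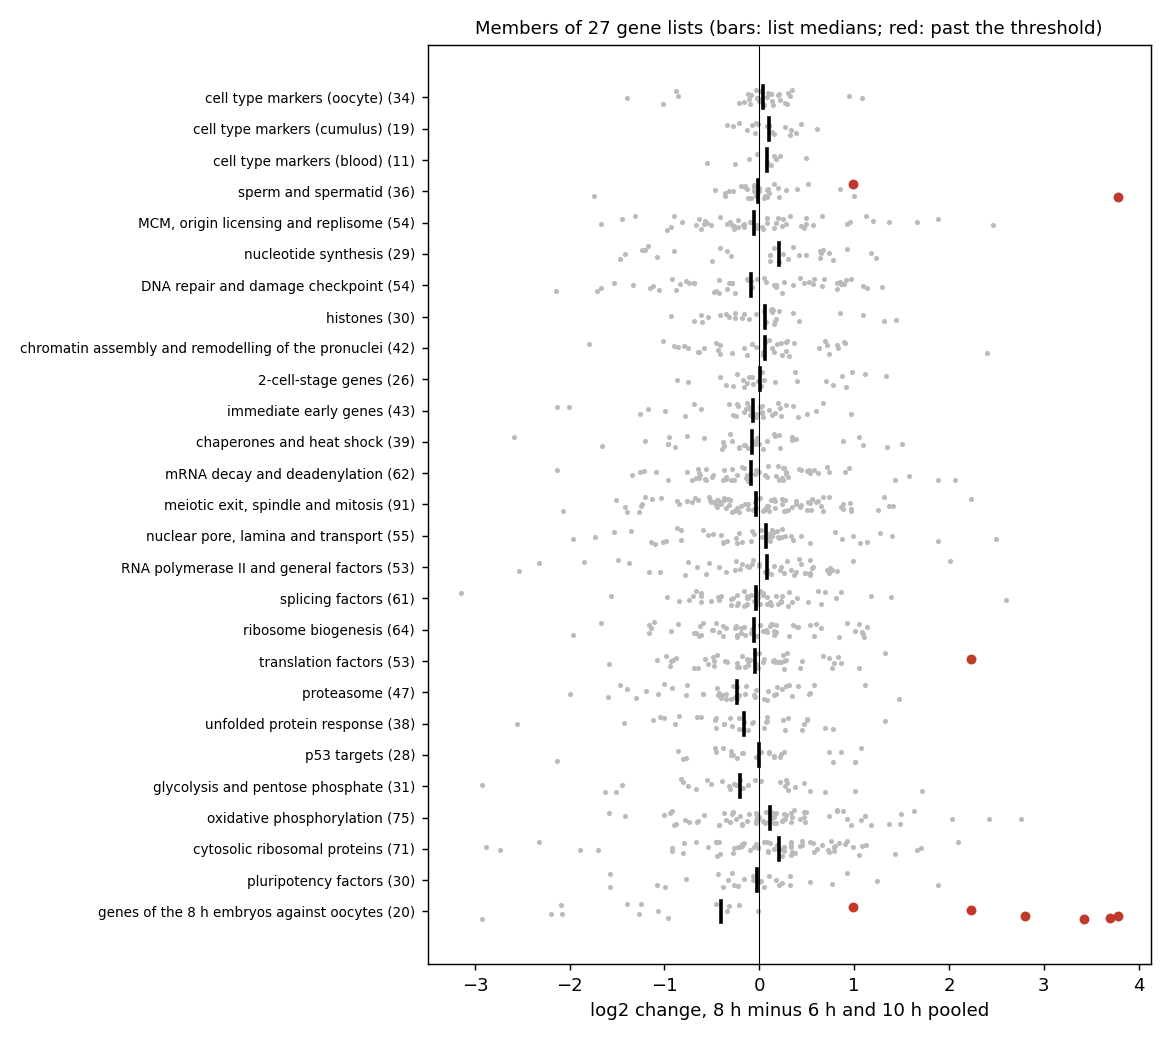
Log2 change at 8 h against 6 h and 10 h pooled (horizontal axis) of each measured member of 27 gene lists (rows, with the number measured in brackets). Grey points were not called, red points were, and black bars are list medians. The bars lie between -0.40 and 0.21, and red points appear in the sperm, translation factor and 8 h lists alone.

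The dips were fewer and brighter. Trappc1, a subunit of the TRAPP complex of vesicle transport, read 6.64, 6.79 and 6.82 in the 8 h embryos, against 9.16, 10.46 and 12.26 as the lowest, median and highest flanking values. All 3 embryos of 8 h were at the background, and no other cell of the series was, the lowest of the other times being 8.63. The change was -3.69 (SE 0.71, limma adjusted p = 0.024), and against the 14 cells of the other times it was -3.77 (SE 0.65, adjusted p = 0.010). The gene has 1 probe. Its adjusted p was 0.0571 without 8 h replicate a and 0.0574 without 10 h replicate b.

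Wdr37, a WD-repeat protein, read 10.05, 10.22 and 10.03 at 8 h, against 11.89, 11.96 and 12.50 as the lowest, median and highest flanking values. The embryos of 8 h agreed closely and lay below all flanking embryos, but 1 of 4 h, at 9.76, was lower still. The change was -2.02 (SE 0.40, limma adjusted p = 0.0331). Of 5 other Wdr37 probes, the 3 above the background changed by -0.58, -0.69 and -0.09, and with the mean of all its probes the change was -0.61 at a limma adjusted p of 0.582.

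Pnrc1, a nuclear receptor coactivator, was called lower with overlapping groups and is named after its values were seen. It averaged 10.49 ± 1.01 at 8 h (SD, n = 3) and 12.82 ± 0.84 in the flanking embryos (n = 7). The change was -2.33 (SE 0.51, limma adjusted p = 0.0487), and leaving out 1 array at a time put the adjusted p of Pnrc1 between 0.0255 and 0.273. The overlap came from 1 embryo of 10 h at 11.26, below the highest embryo of 8 h at 11.35.

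Of the 175 genes whose 8 h embryos all lay below the flanking ones, Trappc1 and Wdr37 alone were called. The 8 that followed by smallest p, with a flanking level over 1 log2 unit above the background, are named here and were not called. Rps6, a protein of the small ribosomal subunit, read 9.26, 10.71 and 9.81 at 8 h, against 11.65, 12.52 and 14.12 as the lowest, median and highest flanking values, with a change of -2.73 (SE 0.60, limma adjusted p = 0.0501). Cbfb, the partner of RUNX transcription factors, read 7.36, 7.75 and 7.52 at 8 h and 9.59 to 13.32 in the flanking embryos, with an adjusted p of 0.0662. In the 14 cells of the other times Rps6 went down to 8.76 and Cbfb to 7.68. Single cells as low were thus not found at 8 h alone, although the 8 h mean was the lowest of the 7 times for both genes. Among 71 ribosomal protein genes measured the median change was 0.21, opposite in sign to that of Rps6. At an unadjusted limma p under 0.05, 5 of the 71 were lower and 1 was higher, against 2.15% lower and 5.45% higher over all genes.

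The other 6 were Rcan1, Dusp18, Drosha, Pdia4, Chdh and Ptpra. Rcan1, an inhibitor of calcineurin, averaged 10.04 ± 1.96 at 8 h and 12.92 ± 0.93 in the flanking embryos (limma adjusted p = 0.0763), and its change of -2.89 was -1.77 without embryo a of 8 h. Dusp18, a dual-specificity phosphatase, averaged 9.38 ± 0.81 at 8 h and 11.88 ± 0.56 in the flanking embryos (limma adjusted p = 0.077), while its 2 other probes changed by -2.01 and 0.73. Drosha, the nuclear nuclease of microRNA processing, averaged 10.85 ± 0.63 at 8 h and 12.84 ± 0.53 in the flanking embryos (limma adjusted p = 0.0959). Pdia4, a disulfide isomerase of the endoplasmic reticulum, averaged 10.22 ± 1.06 at 8 h and 12.78 ± 0.56 in the flanking embryos (limma adjusted p = 0.101). Chdh, which oxidises choline, and Ptpra, a receptor tyrosine phosphatase, changed by -1.51 and -1.16 (limma adjusted p = 0.139 and 0.0763). Neither was lowest at 8 h. Chdh averaged 10.86 at 8 h and 10.77 at 12 h, and Ptpra 6.77 at 8 h and 6.69 at 12 h. Rcan1, Dusp18, Drosha and Pdia4 had their lowest mean at 8 h. Among other probes of these 6 genes above the background, that of Chdh changed the other way, by 0.21, while those of Rcan1 and Drosha changed by -1.77 and -0.59.

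The flanks were also taken singly, with the same 8 h embryos on top of each. Against 6 h alone 1 gene was called higher (0.00512%), and against 10 h alone 22 were higher (0.113%) and 1 lower (0.00512%), 0.118% in all. The 61 genes had median changes of 1.22 against 6 h and 1.19 against 10 h, and the 3 lower genes -2.49 and -2.22. Between the flanks themselves, 10 h against 6 h, limma called 0 genes, with 1116 genes (5.71%) at an unadjusted p under 0.05, and none of the 64 genes was among those. Against the 14 cells of 0, 2, 4 and 12 h, 107 genes were higher at 8 h (0.548%) and 4 lower (0.0205%), 0.568% in all.

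The 3 against 7 design allows an exact permutation test a smallest two-sided p of 0.0167 before adjustment, which any gene with separated groups has by construction. In data simulated for this comparison, with 200 of 19532 genes changed, the limma fit found 22.4% of the genes shifted by 1 log2 unit. It found 52.2% of those shifted by 2 and 93.9% of those shifted by 4, and 8 of its calls were false. Most of the genes shifted by 1 log2 unit there were thus missed. These shares are over genes of all levels. In the measured cells the median standard error was 0.29 up to 1 log2 unit above the background and 0.75 at 2 to 4 units. Whether the share found differed with level was not tested.

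Promoters of the 61 genes called higher at 8 h were compared with those of all genes in sequence alone. Of these genes, 57 lay within 1 log2 unit of the background by the mean over all cells. No comparison with equally faint genes was made, so a difference is not shown to be a trait of the peaks. RefSeq promoters (GRCm38.p6, windows of 300 bases that end just after the gene's start) matched 46 of the 61 genes, with 59 promoters. Their median GC content was 54.7%, against 57.7% for all 19205 promoters of tested genes, and their median CpG observed over expected was 0.435, against 0.618. The TATA-type motif TATAAA was in 6.78% of them on either strand, against 11.5% of all, and the GC box GGGCGG on either strand in 42.4%, against 49.6%. A match is a description of these letters and not a binding site. Shown as examples are the promoters of 2 higher genes and 1 lower gene, each with a single promoter in the table. They need not have the largest changes among such genes, since not every called gene was open to this choice. Klhl11 has a CpG-rich promoter (chr11:100472733-100473032, minus strand, CpG observed over expected 1.03), in which capitals mark the GC box read on the reverse strand. That of C1s2 (chr6:124636036-124636335, minus strand) holds 1 CpG and no match, and that of Pnrc1 (chr4:33248738-33249037, minus strand, CpG observed over expected 0.472) holds no match.
Klhl11: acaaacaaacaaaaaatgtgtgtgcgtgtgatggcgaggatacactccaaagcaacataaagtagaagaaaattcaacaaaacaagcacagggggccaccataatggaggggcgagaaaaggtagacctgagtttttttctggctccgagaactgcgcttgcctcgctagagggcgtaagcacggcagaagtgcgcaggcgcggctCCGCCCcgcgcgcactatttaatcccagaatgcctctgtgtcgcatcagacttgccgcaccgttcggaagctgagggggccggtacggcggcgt
C1s2: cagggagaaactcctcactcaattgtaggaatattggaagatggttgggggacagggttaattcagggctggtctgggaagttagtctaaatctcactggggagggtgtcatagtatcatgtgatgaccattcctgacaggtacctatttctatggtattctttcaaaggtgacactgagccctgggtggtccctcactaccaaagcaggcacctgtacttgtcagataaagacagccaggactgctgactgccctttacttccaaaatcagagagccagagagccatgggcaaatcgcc
Pnrc1: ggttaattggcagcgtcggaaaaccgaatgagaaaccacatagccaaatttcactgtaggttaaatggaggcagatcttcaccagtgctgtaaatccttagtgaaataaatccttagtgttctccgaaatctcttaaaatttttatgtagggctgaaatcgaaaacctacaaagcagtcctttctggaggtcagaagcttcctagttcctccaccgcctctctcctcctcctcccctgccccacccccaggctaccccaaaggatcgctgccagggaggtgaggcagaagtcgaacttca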

How the data were processed

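Messenger RNA of 24 single mouse cells was measured on 1 array each; per the labels' protocols it was captured on oligo-dT beads, copied, tailed and amplified by PCR. The deposited values are scores, which the authors made with limma per the submitters' processing notes (no version given); the sources used here give no further step and leave the labelled channel of the values unnamed. The score columns had medians of 1.16 to 1.18. Their scale was read from 130 midpoints that quantile normalization leaves at tied probes, which followed the curve of a doubly taken natural log of intensity with a largest residual of 0.0232 against fitted values of 1.11 to 2.68. A shift and a scaling of intensity cannot be settled this way. The log2 intensities computed here from the deposited scores, 5.69 to 15.86, rest on a scanner-like range. The plan assumed log2 values; tests ran on this recovered log2 intensity. No background was subtracted. Saturation is unknown.

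The platform annotation gave 1 symbol for 32664 of 41174 probes, several for 45 and none for 8465. The probe with the highest mean over all 24 arrays stood for each of 19532 genes, 8511 of them with more than 1 probe. No arrays were copies of each other (smallest mean absolute difference 0.46).

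limma 3.58.1 in R 4.3.3 (lmFit, eBayes with trend) fitted 7 time means over 24 arrays. The flanking mean weighted its 7 arrays equally. Calls are two-sided at a Benjamini-Hochberg adjusted p under 0.05 over all genes. Labels do not say which cells share an animal, and p-values therefore reflect only how much these cells differ. Named genes are the 15 largest called changes in each direction with separated groups and a level over 1 log2 unit above background in the higher group, filled to 10 by smallest p for dips, plus called and leading members of 27 lists. Peaks within 1 log2 unit of the background in the flanking embryos met that level by their 8 h mean alone. The members and lists were chosen with earlier results of these data known. Alternatives varied the arrays, the fit, the filter, the probe, the scale and the centring. The steps were tested on simulated data.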

Additional observations from a re-analysis of the deposited data

Results flagged for a closer look

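Among the named genes, 170 sets of 4 to 7 cells were screened for a single cell far from the others, and 15 stood out by Dixon's criterion, which chance alone meets in about 1 of 20 sets. None is a set of 8 h embryos, since 3 cells are too few for it. In the flanking 6 h and 10 h cells together, 6 h embryo a was the high one for Eif2b3 at 7.49, Slc7a13 at 7.09, Has2 at 7.11 and Acbd4 at 8.62, against next values of 6.94, 6.42, 6.83 and 7.36. Nudt17 was highest in 10 h embryo d at 8.05, with the next at 7.59, and Cct7 was lowest in 10 h embryo c at 9.56, with the next at 12.09.

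Within the 4 embryos of 10 h, embryo a stood apart for Alas2 at 9.79, Parp1 at 9.71, Atp5l at 9.72 and Tdgf1 at 7.85, high in Alas2 and Tdgf1 and low in Parp1 and Atp5l. Embryo b stood apart for Cbfb at 11.37 (high) and Taf2 at 8.69 (low), embryo c for Cct7 at 9.56 (low), and embryo d for Nup107 at 12.93 and Acbd4 at 7.36 (both high). Cct7, a subunit of the chaperonin that folds actin and tubulin, averaged 10.05 at 8 h and 12.63 in the flanking embryos and was not called (limma adjusted p = 0.147). Without 10 h replicate c its change was -3.10 at a limma adjusted p of 0.0116.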

How the results depend on the processing

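Against the 64 genes called (58 of them with separated groups), the count depended on which arrays lent their spread. Leaving out 1 array gave 25 to 110 genes (24 to 106 separated): 84, 110 and 98 without replicate a, c or d of 8 h, 61, 35 and 29 without a, b or d of 6 h, and 33, 25, 37 and 33 without a, b, c or d of 10 h. Of the 64 genes, 25 to 53 were called in any one of these. With the 6 h, 8 h and 10 h arrays alone the pooled comparison, its separated genes, 8 h against 6 h and 8 h against 10 h all fell to 0, as did the 2-group fit. Among the upper 60% of genes 4 were called (4 separated), and 0 against 6 h, 0 against 10 h and 5 against 0, 2, 4 and 12 h. Among genes over 1 log2 unit above background 31 were called (29 separated), and with every probe on its own 114 (105). The cause was not tested. Without the trend 8 h against 10 h gave 12 genes, and with array weights 8 h against 6 h gave 6. The planned fit of the 6 h, 8 h and 10 h arrays cannot give 8 h against 0, 2, 4 and 12 h; the arrays of 0, 2, 4, 8 and 12 h, a setting chosen after seeing the data, gave 42. With the replicate letter as a replicate block, 30 genes were called, 28 of them among the 64 (29 separated), with 6 against 6 h, 11 against 10 h and 77 against the other times. Cells that share a letter did not deviate together (correlations of -0.12 to 0.17 in 8 pairs, against -0.19 to 0.18 in 25 pairs of different letters), so letters were not taken to pair cells. Equal weights gave 60 genes, array weights 61, the mean of probes 56, deposited scores 58, centred arrays 50, no trend 44, and leaving out the least correlated array of each time 55, of which 23 were among the 64. None of the called genes that the text names by its rule turned direction in these settings.

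By gene, Ebf1, Olfr1104 and Tmigd1 each lost their call in 2 of 21 settings, both of them fits of the 10 arrays. Of 22 settings, Oaz3 lost it in 3, Atp9b in 4, Trappc1 in 7, Wdr37 in 11, Olfr537-ps1 in 12 and Nudt17 in 15. Of 21 settings, Eif2b3 lost it in 10, Aacs in 12, Acbd4 in 13, Plcz1 in 14 and As3mt in 15. The genes counted over 21 settings were too faint to be among the upper 60% of genes. Their counts leave that setting out, so they do not compare directly with counts over 22. Signal close to the background limits what can be said of the 59 peaks that the flanking embryos held within 1 log2 unit of it.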
